A study of Mus musculus with 16 samples.

Results

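The mouse DNA methyltransferases Dnmt1, Dnmt3a, Dnmt3b and Dnmt3l, with Uhrf1, the protein that brings Dnmt1 to newly copied DNA, were followed through 16 one-colour arrays of pluripotent stem cell lines. The members were taken by gene name from the array files. All 5 were present, with 8 probes of 41174 gene probes: 1 each for Dnmt1, Dnmt3b and Dnmt3l, 2 for Uhrf1 and 3 for Dnmt3a. All 8 probes passed the filter on dim signals, and the 5 members stood among 23166 tested genes.

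The series profiled RNA of embryonic stem (ES) cells, epiblast stem cells (EpiSC) and EpiSC-like lines of NOD mice, a strain that develops autoimmune diabetes, and of mice labelled non-NOD. The NOD arrays held EpiSC-like ES line 1 (4 arrays, passages 5, 7, 9 and 10), EpiSC-like induced pluripotent stem (iPS) line 6 (2 arrays, passages 7 and 12) and NOD ES cells (3 arrays with differently titled lines). The non-NOD arrays held EpiSC (2 arrays, passages 12 and 20), EpiSC iPS cells (2 arrays), 129 ES cells titled mESM (2 arrays, passage 8) and 129 ES cells titled epiESM (1 array, passage 8). The titles of the EpiSC and EpiSC iPS arrays name no strain, so mESM may differ from them in strain. What mESM, epiESM and the letters in the NOD ES and EpiSC iPS titles stand for is not given in the sources used here. Each EpiSC-like group is 1 line, so its replicates are passages of that line, and both mESM arrays carry 1 source label. The p-values therefore measure the spread between these arrays, part of which may be technical. ES cultures had been freed of embryonic fibroblasts by preplating and the EpiSC types had been picked by hand, per the labels' protocols.

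DNA methylation in mammals is written by the Dnmt3 enzymes and copied at replication by Dnmt1. Dnmt3a and Dnmt3b are the enzymes that add new marks, and Dnmt3l has no activity of its own but stimulates them, above all in germ cells and naive pluripotent cells. Uhrf1 reads half-methylated DNA behind the replication fork and recruits Dnmt1 there. Mouse ES cells resemble the inner cell mass and are called naive, whereas EpiSC resemble the epiblast after implantation, are called primed and carry a more methylated genome.

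The promoters of the 3 members whose levels moved most are shown for the density of CG pairs, the sites these enzymes act on, which is the feature in which they differ. RefSeq's promoter table (GRCm38.p6) held 12 windows for the 5 members, and CG pairs were counted in the first 250 bases of each window. Capitals mark CG pairs; all 3 stretches are on the plus strand and are given 5′ to 3′. The Dnmt3l stretch is chr10:78042037-78042286, the Dnmt3b stretch chr2:153649199-153649410 and the Uhrf1 stretch chr17:56303087-56303336.
Dnmt3l: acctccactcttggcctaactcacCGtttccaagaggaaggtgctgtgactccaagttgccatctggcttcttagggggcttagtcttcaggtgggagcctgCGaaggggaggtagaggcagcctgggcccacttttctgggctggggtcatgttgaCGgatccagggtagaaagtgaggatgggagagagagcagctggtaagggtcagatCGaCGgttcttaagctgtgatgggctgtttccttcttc
Dnmt3b: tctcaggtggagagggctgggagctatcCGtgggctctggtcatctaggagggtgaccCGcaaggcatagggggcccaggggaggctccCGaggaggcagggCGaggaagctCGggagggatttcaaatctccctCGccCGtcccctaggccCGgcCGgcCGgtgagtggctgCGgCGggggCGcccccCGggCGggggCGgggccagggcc
Uhrf1: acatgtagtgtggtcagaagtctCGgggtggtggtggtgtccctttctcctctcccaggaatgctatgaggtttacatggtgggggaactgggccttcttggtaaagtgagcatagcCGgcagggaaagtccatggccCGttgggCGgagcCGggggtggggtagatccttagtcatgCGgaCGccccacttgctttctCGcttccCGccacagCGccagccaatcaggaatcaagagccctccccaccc
The 3 Dnmt3l windows held 5, 4 and 3 CG pairs, below the median of 6 over 32851 mouse windows. The Dnmt3b window held 21 CG pairs in its 250 bases, more than 83.7% of windows. The stretch shown is the 212 of these bases that lie before the annotated start of the gene, and holds 16 of the pairs. Uhrf1 had windows of 10 and 30 pairs, Dnmt3a of 38, 40 and 15, and Dnmt1 of 2, 7 and 26. The letters GCGGGAA, the form that E2F factors bind, were searched on both strands and matched once, in the Uhrf1 window shown, against 3.82% of all windows. The letters CCAAT, searched likewise, matched in 2 of the 3 Dnmt1 windows and in both Uhrf1 windows, against 33.8% of all windows, and the octamer ATTTGCAT in none of the 12, against 1.60%.

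Each level is a log2 signal from which the 75th percentile of its own array was subtracted, so a level of 0 is that percentile. Between 26.3% and 88.5% of gene spots were well above background per array, and none was saturated. The label check went with the names in part. The EpiSC-like ES and iPS lines were set against NOD ES, and EpiSC against mESM. In each of the 3 comparisons 7 of 8 naive ES markers fell. In that order 6, 3 and 7 of 7 primed epiblast markers rose. Of all genes 25.8%, 18.1% and 12.8% fell and 17.0%, 14.9% and 11.9% rose. Without the doubtful arrays named next, 8, 8 and 7 naive markers fell and 6, 5 and 7 primed markers rose. All 6 core pluripotency genes fell in the EpiSC-like iPS line, with Pou5f1, the gene of Oct4, lower by 7.37 ± 0.73 (log2, SE). Pou5f1 was well above background on only 1 array of that line, so the size of its fall is uncertain. The median over these 6 genes was -3.45 there, -3.26 in the EpiSC-like ES line and -2.65 in EpiSC against mESM. Below, the iPS line is counted as EpiSC type by its title, although fewer primed markers rose in it. Among the arrays, NOD ES replicate 1 lay nearer to EpiSC iPS replicate 1 (SD of the difference over all genes 0.698) than to its own group (1.13 and 1.15). EpiSC iPS replicate 2 lay nearer to NOD ES replicates 2 and 3 (0.387 and 0.397) than to EpiSC iPS replicate 1 (0.964). NOD ES replicate 1 and EpiSC iPS replicate 2 also had the lowest shares of gene spots well above background, 26.3% and 40.5%. Both are on slide 6, as is EpiSC iPS replicate 1 at 51.2%. The part of signal quality or slide in their placement was not tested. These 2 doubtful arrays keep their labels here, and values without both are given beside most of the results that use them. With both left out, more of all genes were called against ES cells. The shares were 54.4% in the EpiSC-like ES line, 49.4% in the EpiSC-like iPS line and 46.1% in EpiSC. EpiSC iPS then holds 1 array, which the fit assumes to vary like the other groups. Fewer cells of a type and less RNA per cell cannot be told apart in such bulk samples.

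Dnmt3l, the stimulating cofactor, split the arrays into an ES-type set and an EpiSC-type set with nothing between. Its level was 5.31 on both mESM arrays and 6.57 on epiESM. NOD ES read 6.70, 5.97 and 6.00, and EpiSC iPS 7.04 and 5.92. EpiSC read -2.50 and -2.48. The EpiSC-like iPS line read -1.95 and -1.14, and the EpiSC-like ES line lay between -2.07 and -1.71. The lowest ES-type array was thus 6.45 log2 units above the highest EpiSC-type array; the ES-type arrays ran from 5.31 to 7.04. Over the 16 arrays Dnmt3l spanned 9.55 log2 units, or 747-fold, the widest span of the members.

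**Figure D1:**
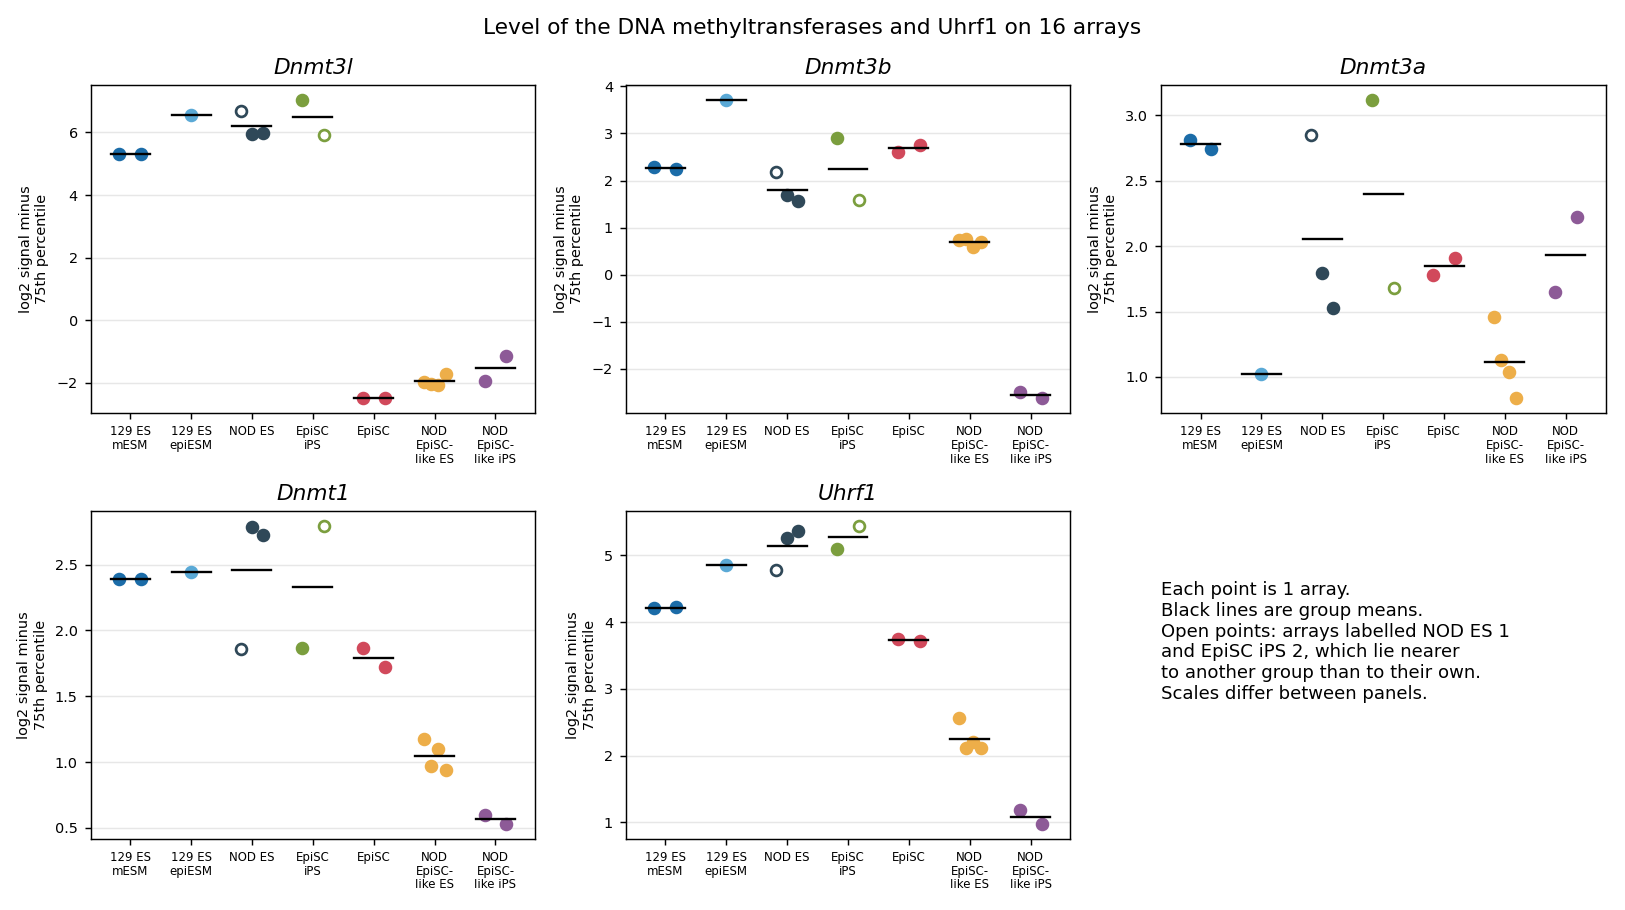
Level of each member's analysed probe (log2 signal relative to the 75th percentile of its array) on 16 arrays by group, with 1 point per array and a black line at each group mean; open points are NOD ES replicate 1 and EpiSC iPS replicate 2. Dnmt3l shows a gap between ES-type and EpiSC-type groups, Dnmt3b is lowest in the NOD EpiSC-like iPS line at -2.49 and -2.63, and Uhrf1 and Dnmt1 step down from the ES-type groups through EpiSC to the NOD EpiSC-like lines.

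Dnmt3l fell in each of the 3 comparisons of an EpiSC-type group with ES cells and rose in the reverse one. It fell by 8.17 ± 0.30 (log2, SE) in the EpiSC-like ES line against NOD ES, 288-fold (limma adjusted p = 3.83e-08). In the EpiSC-like iPS line it fell by 7.77 ± 0.36, 218-fold (limma adjusted p = 2.51e-07), and in EpiSC against mESM it fell by 7.80 ± 0.39, 223-fold (limma adjusted p = 5.41e-07). Between EpiSC iPS and EpiSC it rose by 8.97 ± 0.39, 503-fold (limma adjusted p = 4.31e-07). These put Dnmt3l 9th, 12th and 18th from the lowest of 23166 genes in the first 3 comparisons and 7th from the highest in the last. Without the doubtful arrays the differences were -7.93, -7.53, -7.80 and 9.53. Within slide 4, the 1 slide with both the EpiSC-like ES line and NOD ES, the difference was -8.03. The sizes of these folds rest on dim signals in the EpiSC-type groups, though the probe was well above background on all 16 arrays. Processed signals were 84.9 and 85.9 units in the iPS line, 111 and 126 in EpiSC and 133 to 249 in the ES line. On the ES-type arrays they ran from 16965 to 28921. The NOD EpiSC-like lines, averaged, differed from EpiSC by 0.74 ± 0.32 (limma adjusted p = 0.142), with no overlap of the groups. The fall in NOD lines differed from that in non-NOD lines by -0.17, with a 95% interval of -1.23 to 0.89 (limma adjusted p = 0.878).

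Dnmt3b, the main enzyme of new methylation in the epiblast, was the member in which the EpiSC-type groups differed most. EpiSC read 2.60 and 2.76 and both mESM arrays 2.30 and 2.25. NOD ES read 2.18, 1.69 and 1.56. The EpiSC-like ES line lay between 0.59 and 0.76 on its 4 arrays, below every ES array. The EpiSC-like iPS line read -2.49 and -2.63, over 3 log2 units below any other array, although its probe was well above background on both. At the other end stood epiESM at 3.71, with EpiSC iPS at 2.89 and 1.58.

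In numbers, Dnmt3b fell by 1.11 ± 0.27 in the EpiSC-like ES line against NOD ES, 2.16-fold (limma adjusted p = 0.00674). In the EpiSC-like iPS line the fall was 4.37 ± 0.33, 20.6-fold (limma adjusted p = 3.60e-06), 120th from the lowest gene. Both falls were called without the doubtful arrays, at -0.93 and -4.18. EpiSC against mESM gave 0.41 ± 0.36 with a 95% interval of -0.38 to 1.20, which did not pass (limma adjusted p = 0.43). With the spread estimated without the doubtful arrays, which belong to neither group, the same difference passed as a rise (limma adjusted p = 0.028). Against EpiSC, the mean of the NOD EpiSC-like lines fell by 3.61 ± 0.30, 12.2-fold (limma adjusted p = 4.83e-05), the 12th lowest of all genes. Taken alone, the ES line fell by 1.98 (limma adjusted p = 0.0029) and the iPS line by 5.24 (limma adjusted p = 8.70e-06). Within slide 1, which holds both lines and EpiSC, the difference of their mean was -3.47. Slide 3 holds no iPS line array, and the ES line differed from EpiSC by -2.17 there.

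The EpiSC-like lines themselves differed: Dnmt3b fell by 3.26 ± 0.31 in the iPS line against the ES line, 9.55-fold (limma adjusted p = 4.83e-05), and by 3.22 within slide 1. This size changed with the background correction, and the iPS line's processed signals were 58.6 and 30.5 units. With normexp correction, which adds an offset of 50, the difference was -0.62 (limma adjusted p = 0.149), and with the deposited value table -2.71 (limma adjusted p = 2.93e-05). The normexp values left the fall against NOD ES called, at -1.66 (limma adjusted p = 0.00627). The normexp median over all genes was 1.02 for the iPS line against NOD ES and 0.77 for it against the ES line. The change from ES cells to EpiSC type differed between NOD and non-NOD lines by -3.15 ± 0.44 (limma adjusted p = 0.00158). The iPS line enters this as EpiSC type by its title, though its markers went with that name only in part. That difference was -4.77 (limma adjusted p = 0.000159) with the iPS line alone and -1.52 (limma adjusted p = 0.0574) with the ES line alone. Normexp called far fewer of all genes in this comparison and in that of the iPS with the ES line, as counted in the last section. With it the difference of changes was -1.71 (limma adjusted p = 0.138), beside a median of 0.59 over all genes. Without the doubtful arrays it was -2.96 (limma adjusted p = 8.20e-06).

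**Figure D2:**
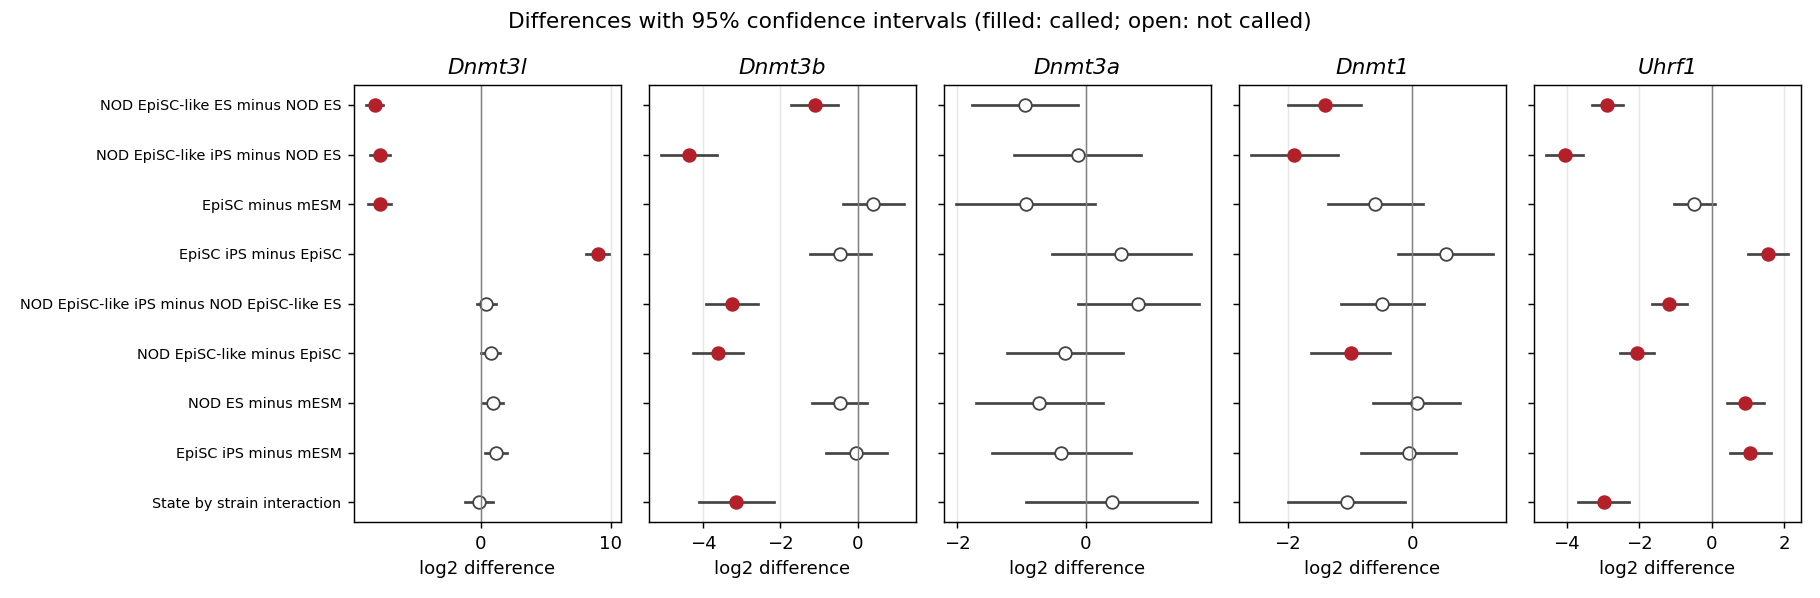
Log2 difference with its 95% confidence interval for each member in 9 comparisons, filled where called at a Benjamini-Hochberg adjusted p under 0.05 and open otherwise. Dnmt3l is called in the 4 comparisons of EpiSC-type with ES-type or EpiSC iPS cells, at -8.17, -7.77, -7.80 and 8.97, and Dnmt3a in none.

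Dnmt3a, the second enzyme of new methylation, gave a different reading from each of its 3 probes. The analysed probe, A_52_P76146 (mm7 chr12:3825243-3826024), and A_52_P30497 (chr12:3830965-3831024) are listed under both RefSeq accessions of the gene. A_52_P169048 (chr12:3826602-3826661) is listed under 1 of them, and all 3 probes are listed under the same Ensembl transcripts. No annotation of that build was used here, so exons are not given.

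On the analysed probe mESM read 2.81 and 2.74, EpiSC 1.78 and 1.91, and the EpiSC-like iPS line 1.65 and 2.22. The EpiSC-like ES line lay between 0.84 and 1.46, below all 3 NOD ES arrays at 2.85, 1.79 and 1.53. The single epiESM array read 1.03, in the range of that line, and EpiSC iPS spread from 1.68 to 3.12. No comparison passed on this probe: the EpiSC-like ES line differed from NOD ES by -0.94 ± 0.38 with a 95% interval of -1.77 to -0.11 (limma adjusted p = 0.0639). Without EpiSC iPS replicate 1, EpiSC iPS replicate 2 or NOD ES replicate 3 this difference passed, at -0.94, -0.94 and -1.21 (limma adjusted p = 0.0275, 0.0275 and 0.0429). EpiSC against mESM gave -0.93 ± 0.49 (limma adjusted p = 0.192) and the EpiSC-like iPS line against NOD ES -0.12 ± 0.45 (limma adjusted p = 0.873). Without the doubtful arrays, Dnmt3a fell in EpiSC against mESM (limma adjusted p = 0.0115) and was higher by 1.27 on the single remaining EpiSC iPS array than in EpiSC, a call (limma adjusted p = 0.00803) whose spread comes from other groups. The EpiSC-like ES line then differed from NOD ES by -0.54 (limma adjusted p = 0.0515) and the iPS line by 0.27.

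The probe A_52_P169048 read 1.60 and 1.56 on mESM, 0.16 and 0.69 on EpiSC, and from -1.48 to -1.13 in the EpiSC-like ES line. NOD ES lay at 0.53, -0.17 and -0.30, so the EpiSC-like ES line was below all ES arrays here too. In a fit of 34295 probes, it fell by 1.32 ± 0.28 in that line against NOD ES (limma adjusted p = 0.0033), where 24.3% of probes fell. It also fell by 1.15 in EpiSC against mESM (limma adjusted p = 0.046, 11.8% of probes fell) and by 1.56 in NOD ES against mESM (limma adjusted p = 0.0198, 2.70% fell). Against EpiSC, the NOD EpiSC-like lines fell by 1.39 (limma adjusted p = 0.0132, 6.98% fell).

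On the dimmest probe, A_52_P30497, several differences had the opposite sign to those of the other probes, and 1 of these was called. NOD ES read -2.48, -2.17 and -2.33 and the EpiSC-like ES line from -1.68 to -1.30, a rise of 0.88 ± 0.32 (limma adjusted p = 0.0485), where 15.5% of probes rose. The iPS line against NOD ES gave 0.79 and EpiSC against mESM 0.36, neither called. This was not called with quantile normalization (1.34, limma adjusted p = 0.0509), the deposited table (0.35, 0.289) or normexp (0.52, 0.488). Over the 16 arrays, which share groups and slides, the first 2 probes correlated at r = 0.79, and A_52_P30497 with them at -0.03 and -0.01. A single direction for Dnmt3a therefore cannot be given from these probes.

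**Figure D3:**
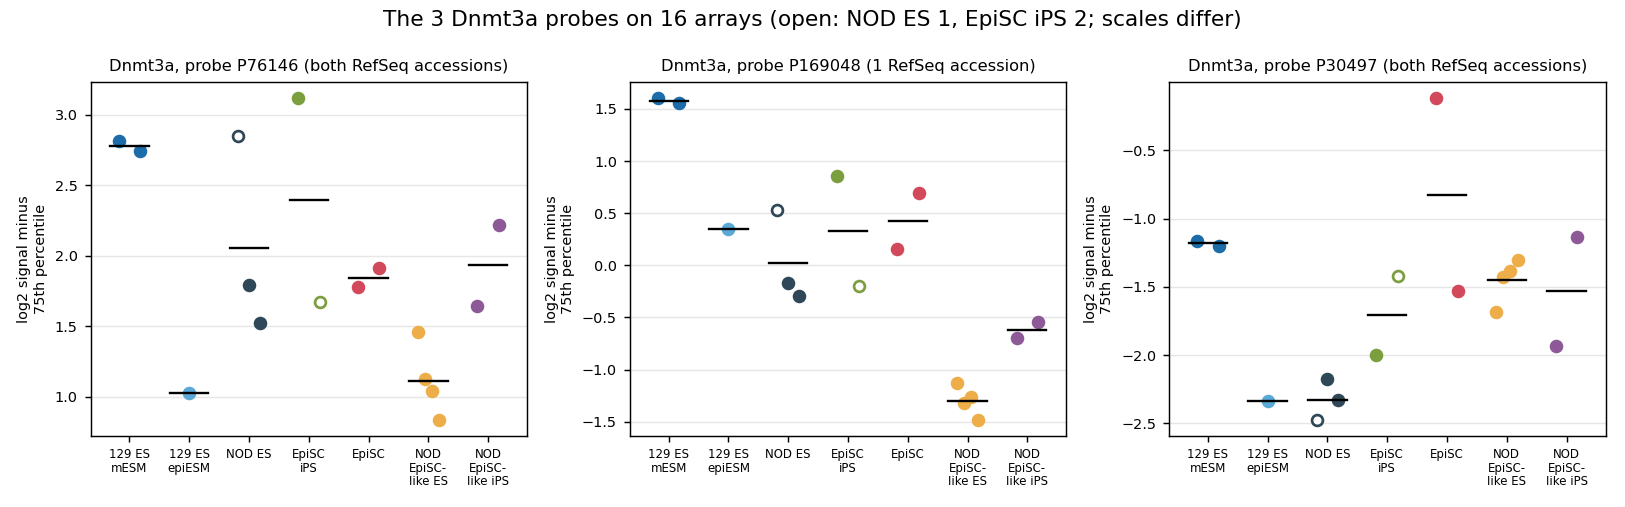
Level of the 3 Dnmt3a probes (log2 signal relative to the 75th percentile of its array) on 16 arrays, with black lines at group means and open points for NOD ES replicate 1 and EpiSC iPS replicate 2. The NOD EpiSC-like ES line is below the NOD ES arrays on the first 2 probes and above them on the third, where NOD ES reads -2.48 to -2.17.

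Uhrf1, which carries Dnmt1 to the fork, was graded across the groups. EpiSC iPS read 5.10 and 5.45 and NOD ES 4.79, 5.26 and 5.36. The epiESM array stood at 4.86, mESM at 4.21 and 4.23, and EpiSC at 3.75 and 3.71. The EpiSC-like ES line lay between 2.11 and 2.56 and the EpiSC-like iPS line at 1.18 and 0.97. No EpiSC-like array came within 1.15 log2 units of EpiSC, and from mESM downward no neighbouring groups in this order overlapped. The second Uhrf1 probe followed the first at r = 0.99 over the 16 arrays.

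Uhrf1 fell by 2.89 ± 0.20 in the EpiSC-like ES line against NOD ES, 7.39-fold (limma adjusted p = 1.19e-06). It fell by 4.06 ± 0.23 in the EpiSC-like iPS line, 16.7-fold (limma adjusted p = 8.63e-07). Both were called without the doubtful arrays, at -3.06 and -4.23. In EpiSC against mESM the difference of -0.49 ± 0.26 did not pass (limma adjusted p = 0.189), though it did with the spread estimated without the doubtful arrays (limma adjusted p = 0.0422). It rose by 1.54 ± 0.26 in EpiSC iPS against EpiSC, 2.92-fold (limma adjusted p = 0.00151), a call that normexp ended (1.48, limma adjusted p = 0.173); the 1 array left without the doubtful ones gave 1.37. The iPS line was below the ES line by a fall of 1.17 ± 0.22 (limma adjusted p = 0.00312), and by 1.38 within slide 1. With normexp that fall was 1.54 and not called (limma adjusted p = 0.0757). Far fewer of all genes were called with normexp in EpiSC iPS against EpiSC and in the iPS against the ES line, as counted in the last section.

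The NOD EpiSC-like lines fell against EpiSC by 2.07 ± 0.21 in Uhrf1, 4.19-fold (limma adjusted p = 0.000152). The ES line alone fell by 1.48 (limma adjusted p = 0.00225) and the iPS line alone by 2.65 (limma adjusted p = 5.99e-05). Within slide 1 the difference for the mean of both lines was -1.87. Within slide 3, with the ES line only, it was -1.50. The change from ES to EpiSC type, with the iPS line again counted by its title, differed between NOD and non-NOD lines by -2.98 ± 0.32 (limma adjusted p = 0.000367). Normexp called far fewer of all genes in this comparison, as counted in the last section. The difference of changes was -2.40 (limma adjusted p = 0.00161) with the ES line alone and -3.57 (limma adjusted p = 0.000126) with the iPS line alone. With normexp it was -3.32 and did not pass (limma adjusted p = 0.0612), and without the doubtful arrays it was -3.16 (limma adjusted p = 2.33e-05).

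Among the ES-type groups Uhrf1 was higher than in mESM by 0.92 ± 0.23 in NOD ES (limma adjusted p = 0.0338) and by 1.06 ± 0.26 in EpiSC iPS (limma adjusted p = 0.0243). On the second probe the differences were 0.65 and 0.72 and did not pass (limma adjusted p = 0.251 and 0.22). With slide as a random block the NOD ES difference was 0.89 and no longer called (limma adjusted p = 0.0706), and that of EpiSC iPS was 1.12 (limma adjusted p = 0.0463). Quantile scaling (0.64 and 0.67), the deposited table (0.46 and 0.56), normexp, the mean over probes and averaging the mESM arrays ended both calls, and no filter on dim probes ended the NOD ES call. With normexp or averaged mESM arrays far fewer of all genes were called in both comparisons, as counted in the last section. Leaving out any 1 of 8 arrays ended the NOD ES call (lowest and highest difference 0.81 and 1.09), and leaving out either mESM array or EpiSC iPS replicate 2 ended the EpiSC iPS call (0.88 to 1.23). No other member was called in these comparisons, where 8.78% and 10.6% of genes were. Without the doubtful arrays 3 members were called in NOD ES against mESM, where 25.9% of genes were: Uhrf1 rose by 1.09, and Dnmt3a and Dnmt3b fell by 1.12 and 0.65. The 1 EpiSC iPS array left, set against mESM arrays of 1 source with the spread taken from other groups, gave 4 called members where 37.1% of genes were called: differences of 0.88 for Uhrf1, 0.62 for Dnmt3b, 1.73 for Dnmt3l and -0.52 for Dnmt1.

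Dnmt1, the maintenance enzyme, followed the same order as Uhrf1 below the ES-type groups over a narrower range. Both mESM arrays read 2.39, epiESM 2.45, NOD ES 1.86, 2.79 and 2.72, and EpiSC iPS 1.86 and 2.80. EpiSC read 1.86 and 1.72, the EpiSC-like ES line from 0.94 to 1.18 and the EpiSC-like iPS line 0.60 and 0.53. The doubtful NOD ES array stood at the level of EpiSC, while every EpiSC-like array lay below every other array. The whole span was 2.27 log2 units, or 4.81-fold.

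It fell by 1.41 ± 0.26 in the EpiSC-like ES line against NOD ES, 2.65-fold (limma adjusted p = 0.00124), and by 1.71 without the doubtful arrays. In the EpiSC-like iPS line it fell by 1.89 ± 0.32, 3.71-fold (limma adjusted p = 0.000758), and the difference without them was -2.19. EpiSC against mESM gave -0.59 ± 0.35 (limma adjusted p = 0.236), which passed with the spread estimated without those arrays (limma adjusted p = 0.00444). EpiSC iPS against EpiSC gave 0.54 ± 0.35 (limma adjusted p = 0.295), and 0.07 without them. Against EpiSC the NOD EpiSC-like lines fell by 0.99 ± 0.29 (limma adjusted p = 0.0388). That call was lost on leaving out any array of either NOD EpiSC-like line, of EpiSC or of mESM (10 arrays, differences from -1.06 to -0.92), with normexp (limma adjusted p = 0.0985) and for the ES line alone (-0.75, limma adjusted p = 0.156). Normexp called far fewer of all genes in this comparison too.

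Counted together, 4 of 5 members fell in the EpiSC-like ES line against NOD ES, in a comparison where 25.8% of genes fell, 17.0% rose and the median over all genes was -0.47. The same count of 4 fell in the EpiSC-like iPS line against NOD ES, where 18.1% of genes fell. In EpiSC against mESM 1 of 5 fell, Dnmt3l, where 12.8% of genes fell; without the doubtful arrays all 5 were called, where 46.1% of genes were. Of the 5, 2 rose in EpiSC iPS against EpiSC, where 12.4% of genes rose. In the iPS against the ES line of the NOD EpiSC-like cells 2 fell, where 11.6% of genes fell, and 3 fell in the NOD EpiSC-like lines against EpiSC, where 8.10% did. In the difference between the NOD and non-NOD changes 2 members, Dnmt3b and Uhrf1, were lower, where 7.39% of genes were. With the ES line alone, Dnmt3b and Uhrf1 were called against EpiSC (9.29% of genes called) and Uhrf1 in the difference of changes (10.3%); with the iPS line alone 3 were called against EpiSC (26.6%) and 2 in the difference of changes (17.3%). Without the doubtful arrays the shares of genes called in these comparisons were 54.4%, 49.4%, 46.1%, 42.2%, 50.6%, 41.3% and 35.5%, and 4, 4, 5, 3, 4, 4 and 3 members were called. NOD ES serves as control for both EpiSC-like lines, and EpiSC and mESM each enter several comparisons, so these counts are not independent of each other.

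The single epiESM array had no replicate and gave no test. Beside the mean of the mESM arrays, it was higher by 1.44 in Dnmt3b, 1.26 in Dnmt3l and 0.64 in Uhrf1. Dnmt1 differed by 0.06, and the Dnmt3a probes by -1.75, -1.23 and -1.15. Its Dnmt3b level of 3.71 was the highest of all 16 arrays, and its Dnmt3a level on the analysed probe lay below that of every array except passage 9 of the EpiSC-like ES line at 0.84.

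Replication genes moved with Uhrf1 and Dnmt1. Of 23 S-phase genes, which copy DNA or are switched on to do so, 21 fell in the EpiSC-like ES line against NOD ES (median -1.67) and 22 in the EpiSC-like iPS line (median -3.43), with none rising; without the doubtful arrays the counts were again 21 and 22 (medians -2.15 and -3.54). Mcm7, a subunit of the replicative helicase, fell by 2.73 ± 0.20 in the ES line, and Rrm2, which makes deoxynucleotides, by 4.39 ± 0.36 in the iPS line. Of all genes 25.8% fell in the ES line and 18.1% in the iPS line. In EpiSC against mESM 10 S-phase genes fell (median -0.92), where 12.8% of all genes fell. Without the doubtful arrays 17 did, where 46.1% of all genes were called in either direction. From EpiSC to EpiSC iPS 11 S-phase genes rose (median 0.90), where 12.4% of all genes rose. In the NOD EpiSC-like lines against EpiSC 21 fell (median -1.60), where 8.10% of all genes fell. With normexp the count that fell in EpiSC against mESM was 1, and that which rose in EpiSC iPS was 1. Normexp also called far fewer of all genes in both comparisons, as counted in the last section.

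Per array, the mean level of the S-phase genes ran from 3.33 to 3.98 in the ES-type and EpiSC iPS arrays, was 2.81 and 2.85 in EpiSC, 1.91 to 1.97 in the EpiSC-like ES line, and 0.70 and 0.54 in the EpiSC-like iPS line. The group means of Uhrf1 and Dnmt1 took the same order among these sets, although NOD ES replicate 1 did not lie above both EpiSC arrays in Dnmt1. The part of cycling in the Uhrf1 and Dnmt1 results was not tested.

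**Figure D4:**
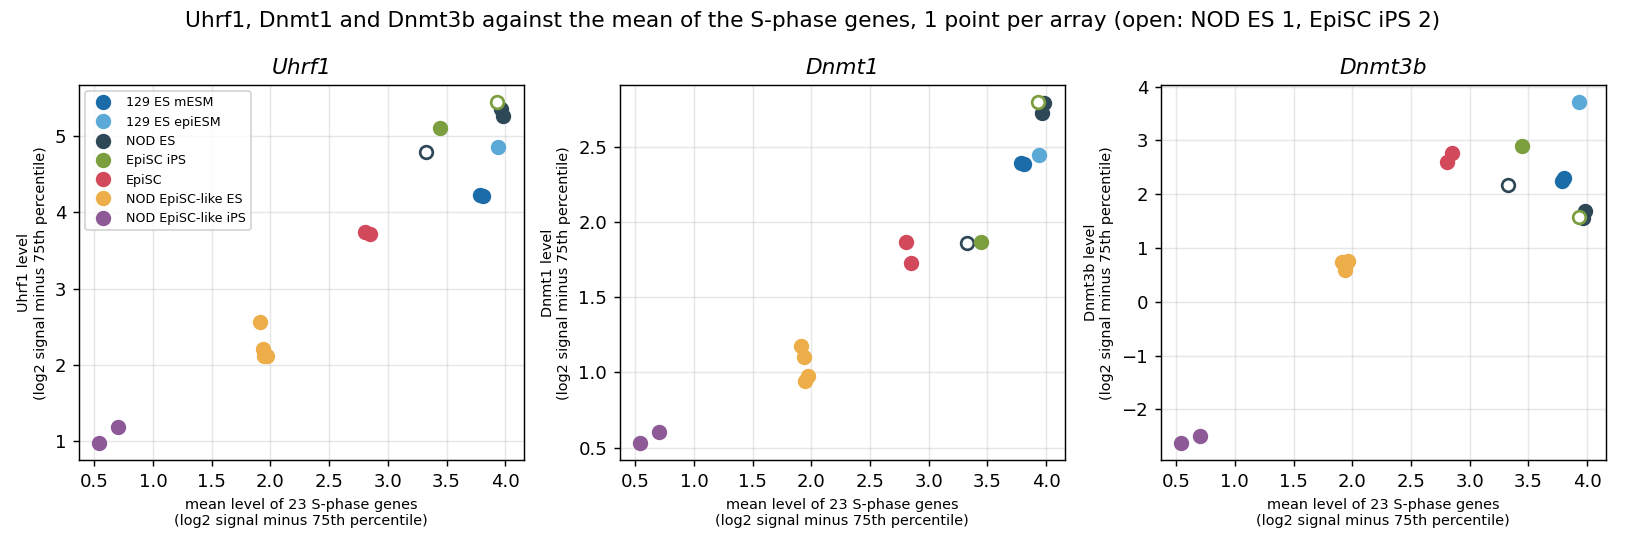
Level of Uhrf1, Dnmt1 and Dnmt3b on each of 16 arrays against the mean level of 23 S-phase genes on the same array (both log2 signal relative to the 75th percentile of the array), coloured by group, with open points for NOD ES replicate 1 and EpiSC iPS replicate 2. Uhrf1 and Dnmt1 climb with the S-phase mean from the EpiSC-like iPS line (0.54 and 0.70) to the ES-type arrays, while the EpiSC arrays read 2.60 and 2.76 in Dnmt3b, above both mESM arrays.

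The genes whose pattern was most like each member's were taken by Pearson's r over the 16 arrays among genes well above background on at least 8 of them. Arrays of 1 group share a line and some share a slide, so r describes group differences more than variation between cultures. Nearest to Uhrf1 were the helicase subunit Mcm7 (0.996), Ppih (0.995), Gcat (0.995), the chromatin assembly subunit Chaf1b (0.994) and Sf3a3 (0.992). Dnmt1 was nearest to Rbpms2 and Sall4 (both 0.990), Rnaseh2b (0.989), Huwe1 (0.987) and the replication licensing inhibitor Gmnn (0.986). Dnmt3l was nearest to the naive marker Dppa5a (0.994), Tdh (0.990), Jade1 (0.989), LOC385154 (0.989) and Zfp971 (0.987). Dnmt3b had Slc27a2 (0.959), Ppp2r1b (0.958), Slc35g1 (0.949), Gmps (0.945) and Hnrnpab (0.944). The nearest to Dnmt3a, by the analysed probe, were Col18a1 (0.898), Epha1 (0.891), Trim54 (0.869), Ckap5 (0.853) and Nrgn (0.843). Among the members, Uhrf1 correlated at 0.95 with Dnmt1, 0.84 with Dnmt3l and 0.80 with Dnmt3b.

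Fibroblast markers also moved with the comparisons. Of 12 markers, such as the matrix genes Dcn and Lum, 10 rose in the EpiSC-like ES line against NOD ES (median 2.61), 4 in the EpiSC-like iPS line (median 1.07) and 11 in EpiSC against mESM (median 4.67). Of all genes 17.0%, 14.9% and 11.9% rose in these comparisons. The marker counts that rose were 12, 11 and 11 without the doubtful arrays. In that setting 54.4%, 49.4% and 46.1% of all genes were called in either direction. On each array 8 to 12 of the 12 were well above background; Fap was so on no NOD ES, mESM or EpiSC iPS array and Postn on no mESM array, and these markers were chosen after their values were seen. The log2 of their summed level was 8.86 to 9.32 in the EpiSC-like ES line, 8.28 and 8.43 in the iPS line, 8.10 and 8.23 in EpiSC, 7.96 in epiESM, 5.87 to 7.63 in NOD ES, 4.46 and 4.48 in mESM, and 9.22 and 5.91 in EpiSC iPS. The part of fibroblast RNA in the members' results was not tested.

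Partners that target or maintain DNA methylation fell more often than they rose. Of 16, 10 fell and 1 rose in the EpiSC-like ES line against NOD ES (median -1.17, beside -0.47 over all genes, of which 25.8% fell), and 11 fell and 1 rose in the EpiSC-like iPS line (median -1.91, beside -0.09, with 18.1% falling). Dppa3, which keeps Uhrf1 away from chromatin in the egg and early embryo, was at least 136-fold lower in the ES line and at least 64.4-fold lower in the iPS line. It was not well above background in either line, so its fold is a lower bound, taken from the bright group's mean over the dimmest signal that counts as well above background on the dim arrays. Trim28 and Zfp57, which hold methylation at imprinted genes, fell by 2.96 ± 0.27 and 2.89 ± 0.79 in the ES line. Hells and Cdca7, a chromatin remodeller and its activator needed for methylation of repeats, fell by 3.57 ± 0.31 and 4.23 ± 0.23 in the iPS line. Uhrf2, the paralogue of Uhrf1, rose by 0.65 and 1.29 in the ES and iPS lines and by 1.38 in EpiSC against mESM; it was chosen after its values were seen. Without the doubtful arrays 10 partners fell in the ES line and 11 in the iPS line, with 1 rising in each. In that setting 54.4% and 49.4% of all genes were called in either direction.

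In non-NOD cells 6 partners fell and 1 rose in EpiSC against mESM, among them Dppa3 (at least 43.1-fold lower), Zfp57 (fell by 4.00) and Hells (fell by 1.65). In EpiSC iPS against EpiSC 5 rose and 1 fell, with Dppa3 at least 168-fold higher and the deubiquitinase Usp7, which stabilises Dnmt1 and Uhrf1, up by 2.12 ± 0.25. Of all genes 12.8% fell and 11.9% rose in EpiSC against mESM, and 12.4% rose in EpiSC iPS against EpiSC. Without the doubtful arrays 8 partners fell and 3 rose in EpiSC, where 46.1% of all genes were called in either direction. The change from ES to EpiSC type differed between NOD and non-NOD lines for 6 of 16 partners, all lower, where 7.39% of genes were lower. These included Usp7 (-2.12 ± 0.31), Cdca7 (-1.93 ± 0.31) and Suv39h2 (-2.28 ± 0.56).

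Of 10 genes that undo methylation, 2 fell and 3 rose in the EpiSC-like ES line, where 25.8% of all genes fell and 17.0% rose. In the iPS line 3 fell and 1 rose, where 18.1% fell and 14.9% rose, and in EpiSC against mESM 2 fell and 2 rose, where 12.8% fell and 11.9% rose. These counts lie near the shares over all genes. With the doubtful arrays left out, 4 fell and 3 rose in the ES line, and 3 fell and 3 rose in the iPS line and in EpiSC. The oxidising enzymes Tet1 and Tet2 fell in all 3 comparisons, by 2.91, 2.06 and 3.53 for Tet1 and by 2.33, 2.06 and 4.00 for Tet2, and rose by 2.32 and 2.90 in EpiSC iPS. Gadd45g, a stress gene linked to demethylation, rose by 3.39 in the ES line and by 3.91 in EpiSC. Tet3 rose by 1.89 and 2.20 there, and was at least 8.17-fold lower in EpiSC iPS than in EpiSC; the rises of Tet3 were chosen after their values were seen. The median of the list was -0.18, 0.45 and -0.35 in the ES line, the iPS line and EpiSC, and its sign changed between scalings.

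Among 8 readers of methylated CG pairs, 3 rose and 2 fell in the EpiSC-like ES line (17.0% and 25.8% of all genes), and 2 rose and 1 fell in EpiSC (11.9% and 12.8%). The numbers that fell lie near those shares. On leaving out the doubtful arrays, 3 rose and 2 fell in the ES line, and 4 rose and 1 fell in EpiSC. Mbd4, a repair glycosylase, fell by 2.20 and 1.70 there and rose by 1.72 in EpiSC iPS. In the iPS line 1 rose, Zbtb4 by 3.33, and 1 fell, Mbd1 by 1.05; without the doubtful arrays 1 rose and 2 fell. Of 7 enzymes that supply the methyl donor, 4 fell and 1 rose in the ES line, 5 fell and 1 rose in the iPS line and 3 fell in EpiSC, where 25.8%, 18.1% and 12.8% of all genes fell. These became 6, 5 and 4 falling and 1, 1 and 2 rising without the doubtful arrays. Methionine synthase, Mtr, fell by 1.68, 3.17 and 1.54 in these, and Mat2a, which makes S-adenosylmethionine, by 1.08, 1.34 and 0.91, the first of which was chosen after its value was seen. Of 5 listed regulators of the Dnmt3 genes, 4 were measured; 3 fell and 1 rose in the ES line, and 3 fell in the iPS line (3 and 2 fell without the doubtful arrays, with 1 rising in each). Dgcr8 and Dicer1, which make the miRNAs that act on Rbl2, fell by 1.36 and 2.14 in the ES line. Rbl2, a repressor of the Dnmt3 genes, rose by 2.34 there, but was well above background on only 1 of 3 NOD ES arrays. The part of these regulators in the Dnmt3 results was not tested. In the iPS line Dgcr8 fell by 2.70, Dicer1 by 1.09, and Prdm1 was at least 7.61-fold lower.

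**Figure D5:**
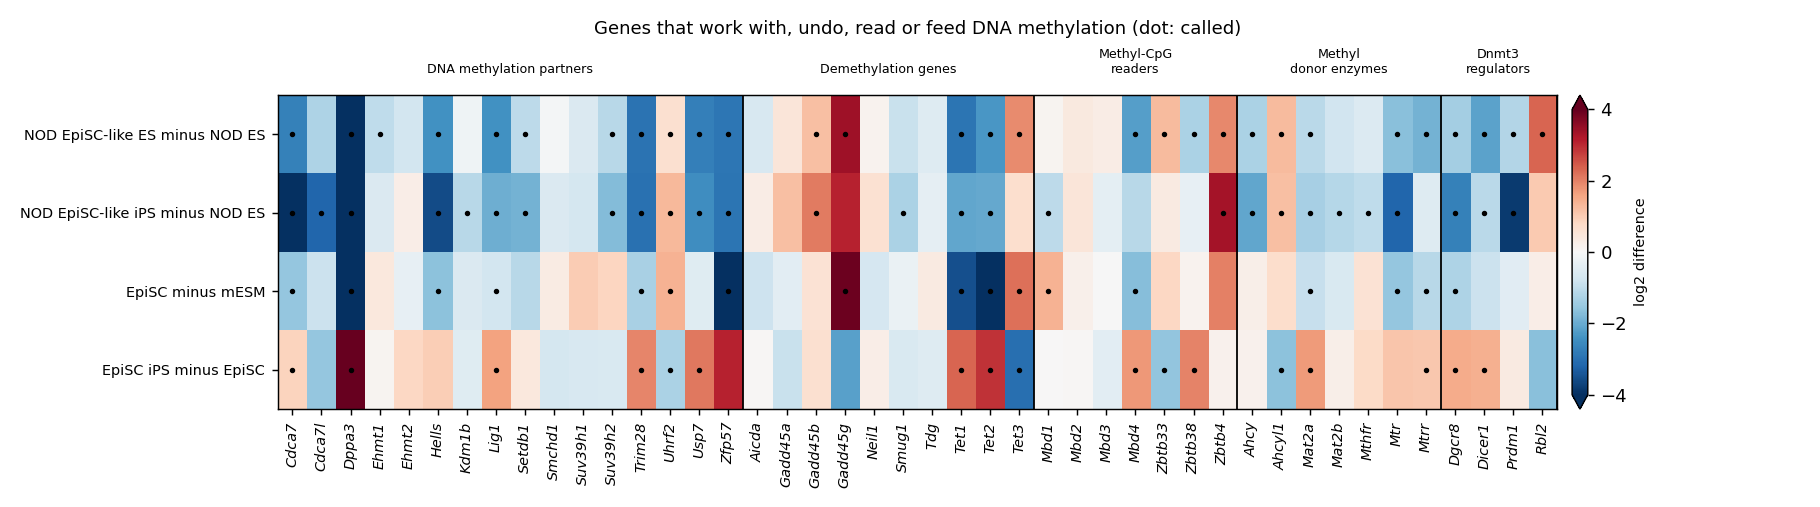
Log2 difference (colour, limits at -4 and 4) of 44 genes that target, undo, read, feed or regulate DNA methylation, grouped by list, in 4 comparisons, with a dot where called. Tet1, Tet2, Dppa3 and Trim28 are lower in the 3 EpiSC-type comparisons and higher in EpiSC iPS; values for Dppa3 rest on signals below background in the EpiSC-type groups.

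The germ line genes whose promoters are known to be silenced by methylation were followed as a readout of the system, although methylation itself was not measured here. Of 14, none rose and 9 fell in the EpiSC-like ES line against NOD ES (median -3.40 with dim genes at their bound), 8 fell in the iPS line (median -2.48 so computed) and 10 in EpiSC against mESM (median -3.95). Of all genes 25.8%, 18.1% and 12.8% fell in these 3 comparisons. In EpiSC iPS against EpiSC 9 germ line genes rose (median 3.41), where 12.4% of all genes rose. Leaving out the doubtful arrays, 8, 8 and 10 fell in the first 3 comparisons, with 1, 1 and 0 rising. In that setting 54.4%, 49.4% and 46.1% of all genes were called in either direction. With normexp the median in the iPS line was 0.98, beside 1.02 over all genes, with 2 rising and 1 falling. Tex19.1 fell by 7.88 ± 0.16 in the ES line, was at least 782-fold lower in the iPS line and rose by 6.76 ± 0.21 in EpiSC iPS. Ddx4, the germ cell helicase Vasa, was at least 78.5-fold, 39.8-fold and 125-fold lower in the ES line, the iPS line and EpiSC. Dazl, an RNA-binding protein of germ cells, was at least 21.7-fold, 10.97-fold and 19.0-fold lower there. Both were higher in EpiSC iPS than in EpiSC, by at least 32.5-fold and 18.3-fold. The groups in which Tex19.1, Ddx4 and Dazl were high are those in which Dnmt3l was high. Not all of the list went this way. Brdt was well above background on 3 EpiSC-like ES, 2 EpiSC-like iPS and 1 EpiSC array, and on no ES-type array. Asz1 was so on 2 EpiSC-like ES arrays only. Brdt and Asz1 were chosen after their values were seen.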

How the data were processed

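RNA of 16 samples was labelled with Cy3 and hybridised to 1-colour Agilent arrays. The authors deposited spot intensities from Feature Extraction, per the file headers, with coordinates of build mm7. The authors also deposited a table of log2 values, used as an alternative; against the scanner files it matched quantile-normalised signals without background correction.

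Processed signals were scaled to each array's 75th percentile and put on the log2 scale. Outlier spots were left out and spots of a probe averaged. Probes well above background on at least 2 arrays were kept, and 1 probe per gene, the one with the highest mean, was tested. One limma fit (3.58.1, R 4.3.3) of all 16 arrays gave each group a mean; p-values were Benjamini-Hochberg adjusted over 23166 genes, with a threshold of 0.05. The number of arrays limits the precision. The fitting code was tested on simulated data.

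All 5 members are named. In each other gene list up to 3 genes with the largest difference per comparison were named, and 5 genes by likeness to each member. Members and lists were chosen with earlier results of these data known. The values of 1 listed gene are not reported here.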

Additional observations from a re-analysis of the deposited data

Results flagged for a closer look

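For 2 members the change from ES cells to EpiSC type differed between NOD and non-NOD lines by a test of the difference itself. The iPS line is counted as EpiSC type here by its title, though its markers went with that name only in part. For Dnmt3b the difference was -3.15, and for Uhrf1 it was -2.98 (log2, NOD change minus non-NOD change; limma adjusted p = 0.00158 and 0.000367). For Dnmt3b it was -1.52 with the ES line alone (limma adjusted p = 0.0574), -4.77 with the iPS line alone and -1.71 with normexp (limma adjusted p = 0.138). With normexp Uhrf1 did not pass either (-3.32, limma adjusted p = 0.0612). Far fewer of all genes were called with normexp in this comparison, as counted below. Every array of both NOD EpiSC-like lines was below every NOD ES array in both genes. In the EpiSC-like ES line, the 1 group with 4 arrays, no array passed Dixon's gap ratio for standing apart in a member. The ratio was highest for Uhrf1, at 0.784 against a critical value of 0.829. With 4 arrays it can flag only an extreme one.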

How the results depend on the processing

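No paired analysis was possible because the groups compared share no replicate numbers in the labels. Of 1100 alternative values of members with a test, 1003 kept their direction and their side of the threshold.

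Directions turned in 31 values, none called in the main analysis. For Dnmt3a these were the iPS line against NOD ES (quantile 0.015, mean over probes 0.0093, without both doubtful arrays or NOD ES replicate 1 0.27, without iPS line replicate 1 0.17; lowest -0.41 and highest 0.27 leaving out 1 array), EpiSC iPS against EpiSC (mean over probes -0.14, leaving out 1 array -0.17 to 1.27), the iPS against the ES line (normexp -0.14), EpiSC iPS against mESM (without both doubtful arrays or EpiSC iPS replicate 2 0.34, leaving out 1 array -1.10 to 0.34), the iPS line alone against EpiSC (0.090), and the difference between the NOD and non-NOD changes (normexp -0.16, ES line alone -0.0072). For Dnmt3b they were EpiSC iPS against EpiSC (0.21; leaving out 1 array -1.10 to 0.21) and against mESM (0.62; -0.69 to 0.62), each without both doubtful arrays or EpiSC iPS replicate 2; without both, 0.62 was called, on 1 EpiSC iPS array. For Dnmt1 they were NOD ES against mESM (normexp -0.060, quantile -0.085, deposited values -0.12, without NOD ES replicate 2 -0.10 or 3 -0.06, leaving out 1 array -0.10 to 0.37) and EpiSC iPS against mESM (slide as random block 0.074, leaving out 1 array -0.52 to 0.41). For Dnmt3l they were the iPS against the ES line (without iPS line replicate 2 -0.0056, leaving out 1 array up to 0.81) and the difference between the NOD and non-NOD changes (normexp 0.30, deposited values 0.071, without both doubtful arrays or NOD ES replicate 1 0.072, without iPS line replicate 1 0.04, iPS line alone 0.034, leaving out 1 array -0.37 to 0.072). The cause was not tested.

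Counts of called genes with normexp were 4549 in the ES line and 13148 in the iPS line against NOD ES (9897 and 7659 in the main analysis), 1518 in EpiSC against mESM (5720), 748 in EpiSC iPS against EpiSC (4919), 60 in the iPS against the ES line (5970), 786 in the NOD EpiSC-like lines against EpiSC (3719), 33 in NOD ES (2033) and 7 in EpiSC iPS (2460) against mESM, and 30 in the difference between the NOD and non-NOD changes (2881). Without both doubtful arrays they were, from EpiSC against mESM onward in that order, 10673, 9779, 11718, 9572, 6005, 8597 and 8212. Leaving out 1 array at a time gave 2787 to 8146, 2466 to 7463, 2470 to 8574, 996 to 6331, 144 to 3213, 269 to 5130 and 990 to 4962. With the mESM arrays averaged, EpiSC, NOD ES and EpiSC iPS against mESM and the difference of changes gave 2771, 158, 250 and 982. Slide as a random block gave 1201 for NOD ES and 1256 for EpiSC iPS against mESM. Against EpiSC the ES line alone gave 2153 and the iPS line alone 6153. With normexp the median over all genes in the iPS line against NOD ES was 1.02.

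Called members with normexp were 1 in EpiSC iPS against EpiSC and 0 in the iPS against the ES line and in the difference of changes. Without both doubtful arrays they were 5 in EpiSC against mESM, 4 in the iPS against the ES line, 3 in NOD ES and 4 in EpiSC iPS against mESM. The ES line alone gave 1 in the difference of changes. In NOD ES against mESM 0 were called with normexp, quantile, the deposited table, no filter, a random block or averaged mESM arrays, and 0 to 1 leaving out an array. In EpiSC iPS against mESM 0 were called with normexp, quantile, the deposited table, the mean over probes or averaged mESM arrays, and 0 to 2 leaving out an array.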
